A study of Mus musculus with 16 samples.

Results

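The myelin and oligodendrocyte genes Mbp, Mog, Mag, Mobp, Cnp, Cldn11, Mal, Ermn and Opalin were followed through the hippocampus of mice in a learned helplessness experiment. They were taken by name from the list of measured transcripts, which gave 9 of 18287 named genes and 36 of 80137 transcripts. Mbp had 14 transcripts, Mag 8, Mobp 4, Cnp 4 and Mal 2, and Mog, Cldn11, Ermn and Opalin had 1 each. No low values were removed, so all 9 genes entered every comparison. The rule takes the genes by name, without a measured value, but they were picked with earlier results of these data known.

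The animals were 16 male wild type C57BL/6 mice aged 3 months, with 4 in each of 4 groups. Both hippocampi of a mouse were pooled into 1 library of total RNA. The homecage (HC) mice stayed in their cages without handling, shock or test. The control (Ctrl) mice were put in the shuttle box on the first day without shock, and on the next day were given 30 trials with escapable foot shocks of 0.4 mA there. The nonlearned helplessness (NLH) and learned helplessness (LH) mice were exposed to 180 inescapable foot shocks of 0.4 mA, were tested 24 h later in the same 30 trials, and were separated by their escape failures and latencies. LH and NLH are therefore classes of behavior after the same procedure, not separate treatments. In the test an escape ended the shock, and after a failure it ran its full time. The paper reports more failures and longer latencies in LH than in NLH and Ctrl, so LH mice also had more shock in the test. Tissue was taken 3 h after the test. The level of a gene is given as summed FPKM, its sequenced fragments scaled by transcript length and library size and added up over its transcripts, so that genes can be set side by side.

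Oligodendrocytes wrap axons of the central nervous system in myelin, a stack of membrane that speeds conduction. The compact part of the sheath is held together by Mbp (myelin basic protein) and contains Mobp (myelin-associated oligodendrocytic basic protein), while Mag (myelin-associated glycoprotein) lies at the inner membrane facing the axon and Mog (myelin oligodendrocyte glycoprotein) at the outer surface. Cnp (a cyclic nucleotide phosphodiesterase of the non-compact regions), Cldn11 (the claudin of myelin tight junctions), Mal (a proteolipid of membrane traffic), Ermn (ermin, an actin-binding protein of the sheath) and Opalin (a membrane glycoprotein) are further products of myelinating cells. In whole tissue, fewer oligodendrocytes and less RNA per oligodendrocyte cannot be told apart.

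The stretches upstream of 4 genes are shown because the comparison of LH with Ctrl turned on Ermn and Mobp, and that of Ctrl with HC on Opalin and Cnp. Each is 200 bases long, from 250 to 51 bases before the transcription start of RefSeq (build GRCm38.p6), written 5′ to 3′ on the strand of the gene, and is promoter sequence outside the transcript. Mobp lies at chr9:120149492-120149691 (plus strand), Cnp at chr11:100574689-100574888 (plus strand), Opalin at chr19:41077164-41077363 (minus strand) and Ermn at chr2:58052915-58053114 (minus strand). Capitals mark ACAAAG, a core bound by Sox factors such as Sox10, and CTGGNAC, a core of the kind bound by Myrf, on either strand. No match of one motif overlapped a match of the other.
Mobp: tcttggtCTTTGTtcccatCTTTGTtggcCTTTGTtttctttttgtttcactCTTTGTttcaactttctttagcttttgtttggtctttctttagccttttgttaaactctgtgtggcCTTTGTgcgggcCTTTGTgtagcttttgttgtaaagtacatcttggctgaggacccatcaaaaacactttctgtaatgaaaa
Cnp: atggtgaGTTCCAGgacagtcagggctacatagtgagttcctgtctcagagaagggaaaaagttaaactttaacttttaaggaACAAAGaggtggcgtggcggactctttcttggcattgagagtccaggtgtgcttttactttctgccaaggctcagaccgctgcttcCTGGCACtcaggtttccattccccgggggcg
Opalin: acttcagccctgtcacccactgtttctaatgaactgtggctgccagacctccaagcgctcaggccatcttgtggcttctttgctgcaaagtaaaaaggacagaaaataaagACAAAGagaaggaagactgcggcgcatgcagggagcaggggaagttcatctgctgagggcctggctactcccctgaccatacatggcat
Ermn: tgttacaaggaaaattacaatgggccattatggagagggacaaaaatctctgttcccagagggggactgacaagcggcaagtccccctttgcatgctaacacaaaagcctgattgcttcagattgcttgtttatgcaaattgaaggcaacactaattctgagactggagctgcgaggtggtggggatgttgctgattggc

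The Mobp window held 6 matches of ACAAAG, all on the opposite strand (CTTTGT), and none of CTGGNAC. The Cnp window held 1 match of ACAAAG and 2 of CTGGNAC, the Opalin window 1 match of ACAAAG, and the Ermn window neither. A RefSeq promoter of 250 bases before the start was at hand for 8 of the 9 genes (10 promoters, all but Mbp). ACAAAG was found in 5 of these 10 promoters (of Cnp, Mag, Mobp and Opalin) and in 16.5% of all 32851 promoters. CTGGNAC was found in 4 of 10 (of Cnp, Mag and Mog) and in 16.1% of all promoters. CANNTG, the E-box, was found in 4 of 10 (of Cnp, Mag and Opalin) against 66.2%, and TATAAA in none against 12.4%. Mag has 3 of the 10 promoters, and 2 of them overlap, so that the same Mag matches of ACAAAG and CTGGNAC are counted in both. By gene, ACAAAG was found in 4 of 8 and CTGGNAC in 3 of 8. A match is a stretch of letters and not a shown binding site.

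LH 3 and LH 4 stood apart from the other libraries. They had 10846 and 15504 transcripts listed at 0, against 4872 to 7352 in the others. The median-ratio size factor, which compares the bulk of transcripts between mice, was 0.847 in LH 4 and 1.01 in LH 3, and 1.10 to 1.27 in the others. Read counts were not used here, and depth was estimated from how FPKM values are spaced at 1343 loci, on an assumed fragment length of 200 bases. It was lowest in LH 4 (20160000 fragments) and highest in Ctrl 2 (38110000), with 62.8% to 67.8% of the values within 0.1 of a whole fragment, so that it is a rough figure. All LH libraries (20160000 to 28150000) lay below every Ctrl library (28670000 or more) and every HC library (31030000 or more). The LH range overlapped with that of NLH (26960000 to 37530000). The part of depth in the differences between groups was not tested. Markers of neurons such as Snap25 and Camk2a were high (9 of 10 listed genes measured, summed FPKM 839 in LH 4 and 904 to 1176 in the others). Markers of striatum summed to 9.61 to 22.6 (7 of 7 measured). Markers of choroid plexus (8 of 8 measured), a tissue next to the hippocampus, ran from 1.67 in LH 4 to 88.5 in LH 2. Genes of peripheral myelin (Prx, Egr2 and Ncmap, 3 of 5 measured) summed to no more than 0.559 in any mouse.

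Mbp was the most abundant of the 9 genes, with a summed FPKM of 256 ± 38.7 (SD, n = 16 mice), which ranked 14 among all 18287 genes. Mobp followed with 98.6 ± 15.2. The next 3 genes were Mag at 28.4 ± 7.41, Cnp at 26.9 ± 4.29 and Cldn11 at 22.2 ± 3.71. Ermn was at 8.80 ± 1.90, Mog at 7.57 ± 1.69, Mal at 3.35 ± 0.903 and Opalin at 2.24 ± 0.835. The ranges over the 16 mice did not touch between Mbp and Mobp, between Mobp and Mag, and between Cldn11 and Ermn. Mag was above Cnp in 12 of 16 mice and Ermn above Mog in 11 of 16, so the order within each of these pairs does not exceed the spread between mice. Mal was above Opalin in 15 of 16 mice. Cnp was above Cldn11, and Mog above Mal, in all 16 mice, although the ranges overlapped. Mal is counted here by its named transcripts alone. With an unnamed transcript at its locus, described with the transcripts of Mal, it was at 25.3 to 43.9 FPKM and above Mog in all 16 mice.

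**Figure D1:**
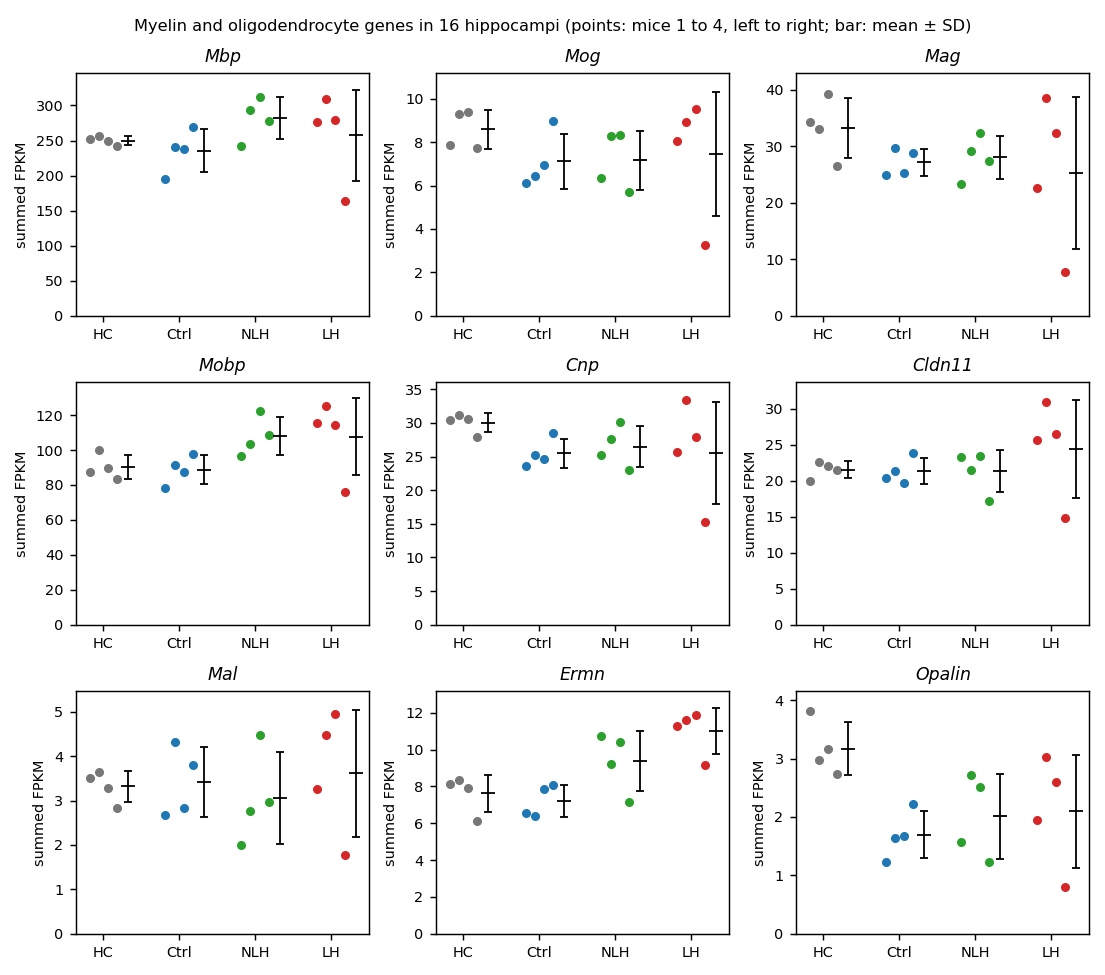
Summed FPKM of each of the 9 genes in the 16 mice by group, with mice 1 to 4 from left to right and the bar showing the mean ± SD of 4 mice. In the LH group the 4th point is the lowest of the whole panel for 8 genes, all but Ermn; Opalin is higher in HC (2.74 to 3.81) than in Ctrl (1.24 to 2.22), and Ermn is higher in LH (9.15 to 11.9) than in Ctrl (6.40 to 8.06).

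LH 4 was the lowest of all 16 mice in 8 of the 9 genes. It was also the lowest mouse in 43.9% of the 10436 genes with a mean of at least 1 FPKM. In LH 4 the 9 genes summed to 292 FPKM, against 359 to 565 in the other mice. Mag was at 7.69 in LH 4 against 22.6 to 39.3 in the others, Mog at 3.26 against 5.70 to 9.51, and Opalin at 0.801 against 1.23 to 3.81. The exception was Ermn, at 9.15 in LH 4, whose lowest mouse was HC 4 at 6.10. After division by the size factor, LH 4 was still the lowest mouse for Mog, Mag, Cnp and Opalin, 4 of 9, against 17.9% of the same 10436 genes. LH 3, the other library with many zeros, was the lowest mouse for none of the 9 and the highest for 3 of them, Mog, Mal and Ermn.

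The spread between mice of a group was largest in LH for 8 of the 9 genes with all mice, and for 2 of them (Mag and Cnp) without LH 4, which was looked at after seeing the data. The SD of log2(FPKM + 0.1) of Mag was 1.03 in LH and 0.13 to 0.24 in the other groups, and without LH 4 it was 0.39 in LH. That of Mbp was 0.42 in LH, 0.089 in LH without LH 4 and at most 0.19 in the other groups. Ermn was the exception, with 0.17 in LH and 0.27 in NLH. The median of this SD over all genes with a mean of at least 1 FPKM was 0.36 in LH (0.25 without LH 4) and 0.14 to 0.20 in the other groups.

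Ctrl was compared with HC, which had no test session, no time in the shuttle box and no handling, and these cannot be told apart. The comparisons share mice, since Ctrl enters 3 of them and LH 2. Opalin was lower in Ctrl, with no overlap between the groups. Its summed FPKM was 3.81, 2.97, 3.16 and 2.74 in the HC mice. In the Ctrl mice it was 1.24, 1.64, 1.68 and 2.22. The log2 difference was -0.88 (SE 0.33), and the exact permutation test gave p = 0.0286, the smallest that 4 mice against 4 allow. With limma fitted to all genes the adjusted p was 1 (unadjusted 0.0167). Opalin was the only gene of the 9 whose groups did not overlap, against 5.24% of all genes (1.91% lay in Ctrl wholly below HC).

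Cnp was next, at 30.4, 31.2, 30.6 and 27.9 in HC and at 23.5, 25.2, 24.6 and 28.5 in Ctrl. Only Ctrl 4 reached into the HC range. The log2 difference was -0.24 (SE 0.17, limma adjusted p = 1, exact permutation p = 0.0571). Mog (-0.28, SE 0.26) and Mag (-0.28, SE 0.34) pointed the same way, with limma adjusted p = 1 for both. The log2 differences of Mbp, Mobp, Cldn11, Mal and Ermn lay between -0.09 and 0.02 (Mal at -0.20 with the unnamed transcript). Of the 9 genes, 8 were below 0 (9 with size factors) and the median was -0.09, against 0.02 over all genes. By limma with adjusted p, 0 of 9 genes and 0 of 36 transcripts passed in this comparison, against 0% of all genes and 0.00374% of all transcripts. At an unadjusted limma p under 0.05, 1 of the 9 passed (Opalin), against 2.7% of all genes. The study's own test on FPKM at an unadjusted p under 0.05 passed 2, Cnp and Opalin, both lower in Ctrl, against 8.5% of all genes. Over the 4 comparisons these are 36 tests of single genes, and an exact permutation p of 0.0286 was reached in 2 of them. After Benjamini-Hochberg adjustment over the 36 it was 0.411 for both, so neither passed.

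NLH and Ctrl both had the test, and only NLH had the inescapable shocks before it. Ermn and Mobp had the largest positive differences and neither passed the adjusted threshold. The Ermn level was 10.7, 9.24, 10.4 and 7.13 in NLH and 6.54, 6.40, 7.83 and 8.06 in Ctrl. NLH 4 lay inside the Ctrl range, and the other NLH mice lay above it. The log2 difference of Ermn was 0.36 (SE 0.15, limma adjusted p = 0.767, exact permutation p = 0.0857).

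The Mobp level was 96.5, 104, 122 and 109 in NLH against 78.1, 91.6, 87.7 and 97.9 in Ctrl, so that NLH 1 and Ctrl 4 overlapped. Its log2 difference was 0.28 (SE 0.13, limma adjusted p = 0.893, exact permutation p = 0.0571). Mbp was at 282 ± 29.8 in NLH and 236 ± 30.5 in Ctrl (SD, n = 4 mice), a log2 difference of 0.26 (SE 0.16, limma adjusted p = 0.970). Mog, Mag, Cnp and Cldn11 lay between -0.0055 and 0.05, Opalin was at 0.19 (SE 0.33) and Mal at -0.19 (SE 0.28). With the unnamed transcript at its locus Mal turned to 0.31 (SE 0.16, limma adjusted p = 0.859). By limma with adjusted p, 0 of 9 genes passed, against 0.00547% of all genes, and 0 of 9 had groups without overlap, against 6.04%. At an unadjusted limma p under 0.05 only Ermn passed, against 5.59% of all genes, and by the study's test on FPKM only Mobp, against 9.57%. The median over the 9 genes was 0.05, against 0.06 over all genes, and 7 of 9 were above 0 (5 with size factors).

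LH mice differed from Ctrl in the inescapable shocks, in having been assigned by their failures to escape and in more shock during the test. Their libraries also had a lower estimated depth, and these cannot be told apart. Ermn was higher in LH without overlap. It was at 11.3, 11.6, 11.9 and 9.15 in the LH mice and at 8.06 or less in all Ctrl mice. The fold was 1.52 and the log2 difference 0.60 (SE 0.15). The exact permutation test gave p = 0.0286, again the smallest possible, and limma an unadjusted p of 0.000822 and an adjusted p of 0.139, which misses the threshold. Ermn was the only one of the 9 genes without overlap, against 5.59% of all genes (4.05% lay in LH wholly above Ctrl). Ermn in HC (7.62 ± 1.02) and in Ctrl (7.21 ± 0.858) overlapped.

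Mobp differed between LH 4 and the rest of its group. In LH it was at 115, 125, 114 and 75.8, so that 3 mice lay above every Ctrl mouse and LH 4 below every one. The log2 difference was 0.26 (SE 0.13, limma adjusted p = 0.488) with all mice. Without LH 4 it was 0.42 (SE 0.094) and limma's adjusted p was 0.0491. Ermn without LH 4 was at 0.69 (SE 0.15, adjusted p = 0.0439). With median-ratio size factors in place of FPKM alone, Ermn was at 0.68 (adjusted p = 0.0290) and Mobp at 0.34 (adjusted p = 0.0443) with all mice kept. In these fits 2 of the 9 genes passed, Ermn and Mobp, both higher in LH, where 1.04% of all genes passed without LH 4 and 2.8% with size factors. Leaving out both LH 3 and LH 4 also gave 2 of 9, the same genes (adjusted p = 0.0383 and 0.0342), against 5.41% of all genes.

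The other 7 genes passed under none of these settings. Mbp was at 277, 309, 279 and 163 in LH and at 195, 240.1, 237 and 269.6 in Ctrl, and LH 4 was below all of Ctrl while the other LH mice were above it. The log2 difference of Mbp was 0.10 (SE 0.16, limma adjusted p = 0.864) with all mice and 0.30 without LH 4. For Mag it was -0.33 (SE 0.34, adjusted p = 0.754) with all mice and 0.17 without LH 4, so that its sign rested on this library. The median over all genes was 0.09 without LH 4. Cldn11 was at 0.15 (SE 0.17), Opalin at 0.17 (SE 0.33), Mal at 0.01 (SE 0.28), Mog at -0.03 (SE 0.26) and Cnp at -0.045 (SE 0.17). With all mice 0 of 9 genes passed limma's adjusted threshold, against 0% of all genes, and at an unadjusted limma p under 0.05 only Ermn, against 11.5%. By the study's test on FPKM again only Ermn passed, against 8.01%. Of the 9 genes, 6 were above 0 (8 with size factors), and the median was 0.10 against 0 over all genes.

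LH against NLH sets helpless beside resilient mice after the same inescapable shocks, and showed none of the 9 genes past any threshold used. The shock received during the test was not the same, since LH mice failed to escape more often. The largest differences were -0.37 for Mag (SE 0.34), 0.24 for Ermn (SE 0.15), 0.20 for Mal (SE 0.28) and -0.17 for Mbp (SE 0.16). By limma with adjusted p, 0 of 9 genes passed, against 0.0109% of all genes. At an unadjusted limma p under 0.05 again 0 passed, against 7.54%, by the study's test on FPKM 0, against 3.5%, and 0 of 9 had groups without overlap, against 2.11%. The median over the 9 genes was -0.02, against -0.06 over all genes, and 3 of 9 were above 0 (7 with size factors). All 9 genes were above 0 once LH 4 was left out, with differences from 0.04 for Mbp to 0.49 for Mal, none of which passed limma's adjusted threshold. The median over all genes rose as well, to 0.03 without LH 4.

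**Figure D2:**
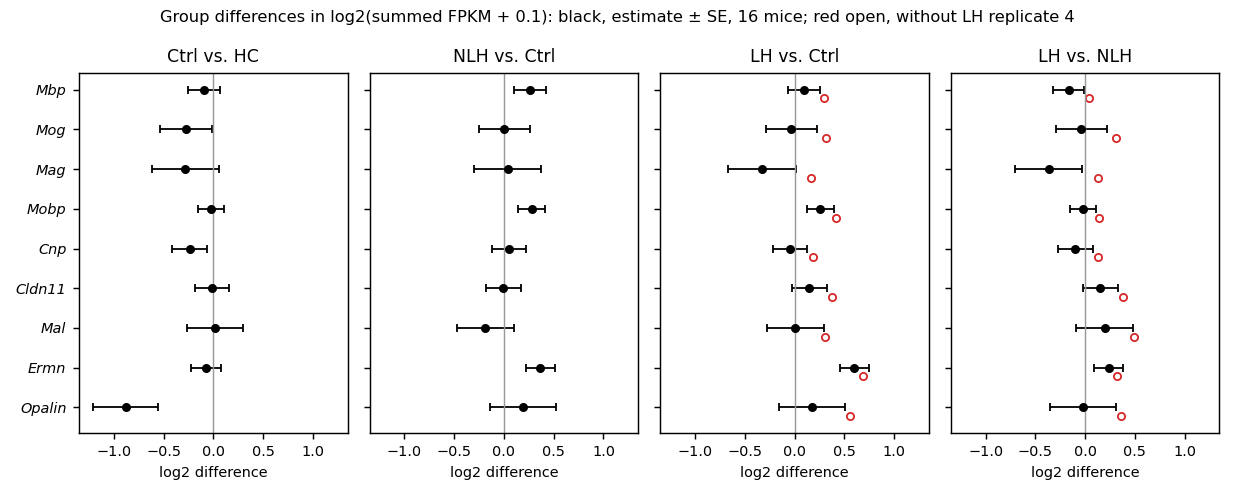
Log2 difference between groups of each gene in the 4 comparisons, with black points for the estimate ± SE from all 16 mice and open red points for the comparisons with LH after LH 4 was left out. Opalin stands at -0.88 in Ctrl vs. HC and Ermn at 0.60 in LH vs. Ctrl, and without LH 4 every difference with LH is above 0.

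The single transcripts of a gene did not always follow its sum. Transcripts of a gene share exons, so the split of FPKM between them is an estimate by the quantification program. All 36 transcripts were found in GENCODE vM21, 23 of them in the same version. For the others, Mbp-204, Mbp-209, Mbp-211, Mbp-212 and Mbp-215 among them, lengths and classes are those of another version. Of the 36, 23 had a mean of at least 1 FPKM. In Ctrl vs. HC, groups without overlap were seen for 2 of 36 transcripts, Opalin-201 (lower, 1.94% of all transcripts) and Mbp-209 (higher), against 4.48%, an unadjusted limma p under 0.05 for 4, against 3.45%, and the study's test passed 2, against 6.68%. In NLH vs. Ctrl these counts were 2 against 5.02% (Mobp-204 and Mbp-207, the latter at a mean of 0.059 FPKM), 5 against 5.12% and 3 against 7.2%. In LH vs. Ctrl they were 1 against 5.85% (Ermn-201, higher, 2.34%), 4 against 10.7% and 3 against 7.69%. In LH vs. NLH they were 1 against 3.18% (Mbp-204), 2 against 8.72% and 1 against 4.47%.

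Mbp-211 (ENSMUST00000133193.7, 128 residues) carried 69.8% of the mean Mbp FPKM and Mbp-212 (ENSMUST00000142850.7, 169 residues) 14.9%. Mbp lies on chromosome 18 (82475146 to 82585637, plus strand), and 13 of its 14 transcripts begin at either of a pair of places. The upstream start gives the golli transcripts (Mbp-201, Mbp-205 and Mbp-208), which made up on average 3.69% of Mbp in a mouse. The golli share was 3.96% ± 0.214 in Ctrl and 3.43% ± 0.176 in NLH, with every NLH mouse below every Ctrl mouse (exact permutation p = 0.0286), as for 2.98% of all transcript shares in that comparison.

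Mbp-209 (ENSMUST00000123251.7, protein coding, 195 residues) ordered the groups otherwise than its gene did. It was at 4.80, 4.98, 4.24 and 6.47 FPKM in HC and at 7.12, 9.16, 10.8 and 7.82 in Ctrl. In NLH it was at 10.1, 12.8, 10.8 and 15.2, and in LH at 19.8, 16.3, 18.3 and 10.2. All Ctrl mice lay above all HC mice, and 3 of the LH mice lay above all NLH mice. The log2 difference was 0.75 (SE 0.21) in Ctrl vs. HC, with a limma adjusted p of 1 and an exact permutation p of 0.0286, and 2.53% of all transcripts lay in Ctrl wholly above HC. In LH vs. Ctrl it was 0.86 (SE 0.21, limma adjusted p = 0.158, exact permutation p = 0.0571, with overlap through LH 4).

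As a share of all Mbp FPKM, Mbp-209 was 2.05% ± 0.426 (SD, n = 4 mice) in HC and 3.72% ± 0.668 in Ctrl. It was 4.37% ± 0.824 among NLH mice and 6.30% ± 0.784 among LH mice. LH 4 was at 6.26% and so stood among the other LH mice (5.27% to 7.15%). The share of LH lay wholly above that of Ctrl, and that of Ctrl wholly above that of HC (exact permutation p = 0.0286 for each), as for 1.92% and 2.03% of all transcript shares. In 44 tests of such shares (11 shares in 4 comparisons), 7 reached this smallest p. They were 2 in Ctrl vs. HC, against 4.17% of all transcript shares without overlap, 2 in NLH vs. Ctrl, against 5.39%, 3 in LH vs. Ctrl, against 6.33%, and 0 in LH vs. NLH, against 4.16%. In FPKM, Mbp-209 passed limma's adjusted threshold among the alternatives run only with size factors (0.93, SE 0.17, adjusted p = 0.0431) and without LH 4 (1.06, SE 0.17, adjusted p = 0.0466) in LH vs. Ctrl, where 0.166% and 0.0836% of all transcripts passed. With all mice, 0 of 36 transcripts passed in LH vs. Ctrl, against 0.0462% of all transcripts.

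Mbp-204 (ENSMUST00000080658.10, 150 residues) separated NLH from LH. It was at 14.6, 4.62, 8.12 and 6.53 FPKM in NLH and between 0.0060 and 0.013 in LH. In Ctrl it was at 0.68 or less in 3 mice and at 9.53 in Ctrl 4, and in HC it was at 1.67 or less. The log2 difference of LH vs. NLH was -6.18 (SE 1.19, limma adjusted p = 0.106, exact permutation p = 0.0286). Its size rested on the 0.1 added before the logarithm, since it was -8.75 with 0.01 added and -3.13 with 1 added. Fitted to the 8 mice of this comparison alone, it passed (adjusted p = 0.00487, with 0.025% of all transcripts passing). It was the only transcript of the 36 whose LH values lay wholly below NLH, as for 2.25% of all transcripts.

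Another Mbp transcript, Mbp-215 (ENSMUST00000152071.7), was at 0.0078 in NLH 1, where Mbp-204 was highest, and at 1.41 to 19.3 in the other mice. The sum of both transcripts, taken after their values were seen, was 15.5 ± 1.53 in NLH and 10.4 ± 6.46 in LH, and its exact permutation p was 0.114. In Ctrl the sum was 15.4 ± 1.68 and in HC 18.4 ± 3.14. LH 4 had the lowest sum, 1.42.

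Cnp was mostly split between Cnp-201 (ENSMUST00000103120.4, coding, 420 residues) and Cnp-204 (ENSMUST00000150414.7, annotated as a processed transcript without a coding region). Cnp-201 made up 44.3% ± 4.80 of Cnp among HC mice and 45.2% ± 6.11 among Ctrl mice. Its share was 39.4% ± 4.90 among NLH mice and 33.2% ± 2.22 among LH mice. All LH mice (31.2% to 36.2%) lay below all Ctrl mice (37.2% to 51.6%), with an exact permutation p of 0.0286, as for 4.41% of all transcript shares. In FPKM, Cnp-201 was at 8.01, 10.7, 9.31 and 5.56 in LH and at 12.2, 11.3, 11.7 and 10.6 in Ctrl. Of these LH mice only LH 2 reached the Ctrl range. The log2 difference was -0.48 (SE 0.18, limma adjusted p = 0.372), and -0.30 without LH 4 (SE 0.15, adjusted p = 0.441). Cnp-204 was at 16.7 ± 5.46 in LH and 13.4 ± 2.82 in Ctrl (0.27, SE 0.22, limma adjusted p = 0.646), and its difference was 0.53 without LH 4 (SE 0.15, adjusted p = 0.144).

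Most of the Mobp level was Mobp-204 (ENSMUST00000174193.7), which GENCODE classes as a target of nonsense-mediated decay and which held 86.1% of the Mobp FPKM. It was at 84.9, 88.7, 106 and 93.8 in NLH and at 66.6, 74.9, 74.8 and 83.6 in Ctrl, without overlap. The log2 difference was 0.31 (SE 0.13, limma adjusted p = 0.902, exact permutation p = 0.0286), and 2.88% of all transcripts lay in NLH wholly above Ctrl. In LH vs. Ctrl it was 0.30 (SE 0.13, limma adjusted p = 0.446), and 0.45 without LH 4 (SE 0.089, adjusted p = 0.0636). Its share of Mobp was 84.4% ± 1.81 in Ctrl, below HC (86.4% ± 0.995), NLH (86.6% ± 0.998) and LH (86.7% ± 0.707), and Ctrl did not overlap with any of them (exact permutation p = 0.0286 each). The margins were narrow, with the highest Ctrl mouse at 85.46% and the lowest mouse at 85.58% in HC, 85.55% in NLH and 86.07% in LH. Ctrl 2, at 81.7%, lowered the mean of Ctrl. Of all transcript shares 2.13% lay in Ctrl wholly below HC, and 2.41% in NLH and 1.92% in LH wholly above Ctrl. By limma, in NLH vs. Ctrl 0 of 36 transcripts passed the adjusted threshold, against 0.0125% of all transcripts, and in LH vs. NLH 0 passed, against 0.0412%.

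**Figure D3:**
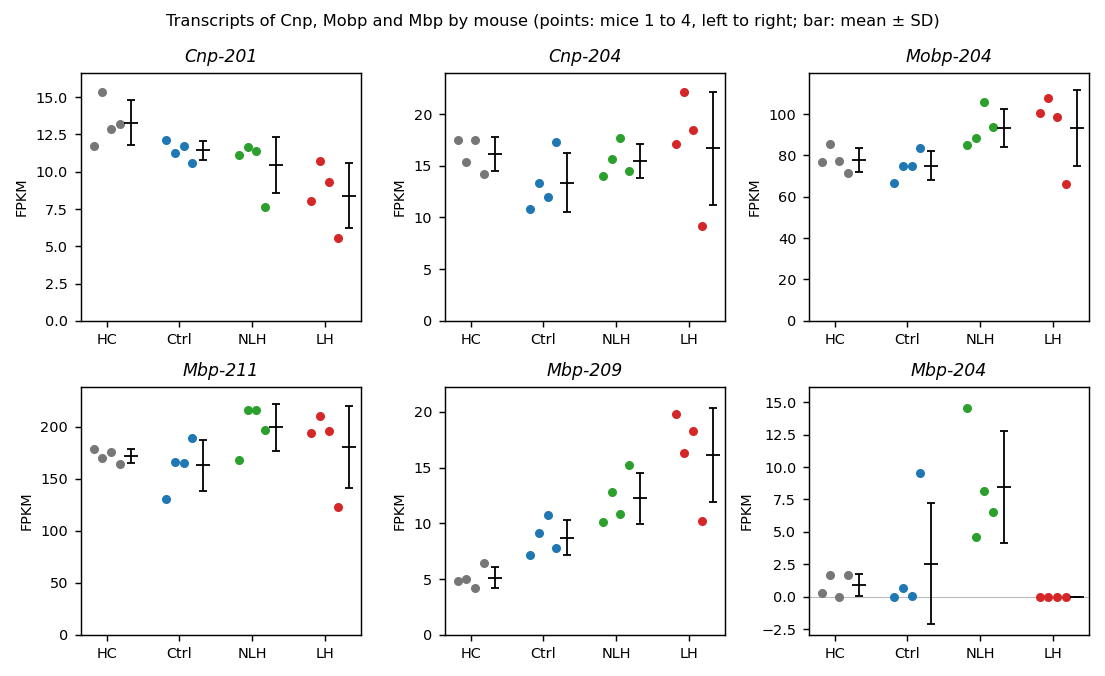
FPKM of 6 transcripts of Cnp, Mobp and Mbp in each mouse, with mice 1 to 4 from left to right in each group and the bar showing the mean ± SD of 4 mice (where the SD exceeds the mean, its bar runs below 0). Mbp-209 runs from 4.24 to 6.47 in HC and 10.2 to 19.8 in LH, while Mbp-211, the main Mbp transcript, overlaps between all groups; Mbp-204 is near 0 in all 4 LH mice and at 4.62 to 14.6 in NLH.

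Mag has a long and a short form of its protein, which differ in the tail inside the cell. Both full-length forms came from the gene at chromosome 7 (30899176 to 30914873, minus strand). The long form is Mag-207 (ENSMUST00000191081.6, 627 residues) and the short form Mag-203 (ENSMUST00000187137.6, 582 residues), with the rare Mag-201. Shown is the coding part, 33 bases to the end of the stop codon (capitals), of exon 12 of Mag-203, since the end of the protein sets the short form apart. The exon has 45 bases at chr7:30900352-30900396 (GRCm38, minus strand, written 5′ to 3′ on the strand of Mag).
Mag-203 exon 12: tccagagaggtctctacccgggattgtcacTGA

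The most abundant Mag transcript was Mag-205 (ENSMUST00000190638.6, 168 residues) with 55.2% of the FPKM, followed by Mag-207 with 19.6% and Mag-203 with 15.2%. The long form as a share of long plus short was 54.7% ± 7.83 in HC and 57.0% ± 12.6 in Ctrl. Among NLH mice it was 53.1% ± 3.68, and among LH mice 52.7% ± 8.46. The groups overlapped in all 4 comparisons, and the smallest of the 4 exact permutation p was 0.543. Mag-203 itself was at 5.38 ± 1.09 FPKM in HC and 3.70 ± 0.867 in Ctrl (log2 difference -0.53, SE 0.21, limma adjusted p = 1, exact permutation p = 0.0857). Mag-204 (ENSMUST00000188569.6), with a mean of 0.047 FPKM, was seen at 0.101 or above in HC 3 and 3 NLH mice only. Its log2 difference of LH vs. NLH passed limma's adjusted threshold when NLH 1 was left out (-1.60, SE 0.30, adjusted p = 0.0423, with 0.302% of all transcripts passing) and not otherwise (-1.20, SE 0.37, adjusted p = 0.392).

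The named transcripts of Mal held a small part of the FPKM at its locus. Mal-202 (ENSMUST00000028854.14, 153 residues, chromosome 2, 127633226 to 127656695) gave 99.8% of the named FPKM, with a mean of 3.34. An assembled transcript without a gene name at the same locus had a mean of 29.9 FPKM (24.6 ± 1.92 in Ctrl and 34.2 ± 7.23 in LH). With it, the locus summed to 39.1, 43.9, 43.0 and 25.3 in LH and to 25.3, 29.5, 26.4 and 30.8 in Ctrl. LH 4 lay inside the range of Ctrl and the other LH mice above all of Ctrl. The log2 difference of LH vs. Ctrl for Mal moved from 0.01 to 0.40 (SE 0.16, limma adjusted p = 0.299), an alternative added after the values had been seen. In all, 9 unnamed transcripts lay at the loci of Opalin, Mag, Mal and Mog, and apart from the one at Mal none had a mean above 1.73 FPKM.

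The levels of most of the 9 genes were correlated from mouse to mouse. Over the 16 mice Pearson's r of log2(FPKM + 0.1) had a median of 0.681 over the 36 pairs, from -0.0031 for Mag and Ermn to 0.944 for Mog and Cnp, and 28 pairs were above 0.5. Over all pairs of the 10436 genes with a mean of at least 1 FPKM the median was 0.268 and 25.2% were above 0.5. The 28 pairs without Ermn had a median of 0.719 and the 8 pairs with Ermn one of 0.203. These medians were 0.509 and 0.419 without LH 4, 0.457 and 0.487 without the 2 farthest mice of each pair, and 0.882 and 0.557 within groups. The same 16 libraries give the points of every pair, and the part of library quality in r was not tested.

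Mog, Mag, Cnp and Opalin had r of 0.789 to 0.944 with each other. Mog and Cnp had r = 0.944 (permutation p = 1e-05, the smallest that 100000 resamples can give, and 0.00012 adjusted over the 36 pairs) and Spearman's rho = 0.824 (permutation p = 0.00016, adjusted 0.00144). Cnp and Opalin had r = 0.914 (permutation p = 1e-05, adjusted 0.00012) and rho = 0.918 (permutation p = 1e-05, adjusted 0.00018). Both relations held without the mice farthest from the median of the first gene, LH 4 and NLH 4 (r = 0.802 and 0.894). Mbp and Mobp formed another close pair, with r = 0.884 (permutation p = 1e-05, adjusted 0.00012) and rho = 0.897 (permutation p = 1e-05, adjusted 0.00018), and r = 0.898 without LH 4 and Ctrl 1.

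Between Mbp or Mobp and those 4 genes r was lower, 0.389 to 0.781, and it differed with the way of computing it. Taken within groups, from deviations around the group means, these 8 pairs were at 0.791 (Mobp and Opalin) to 0.924 (Mbp and Cnp), against 0.850 to 0.945 among the 4 genes. Mbp and Cnp had r = 0.781 (permutation p = 0.00163, adjusted 0.00447) and rho = 0.532 (permutation p = 0.0352, adjusted 0.0576) over 16 mice, r = 0.503 without LH 4 and r = 0.357 without LH 4 and Ctrl 1. Mobp and Opalin had r = 0.389 (permutation p = 0.134, adjusted 0.155) and rho = 0.212 (permutation p = 0.427, adjusted 0.453) over 16 mice, and r = 0.0796 without LH 2 and LH 4. Mobp and Ermn had r = 0.674 (permutation p = 0.00461, adjusted 0.00862) and rho = 0.647 (permutation p = 0.0078, adjusted 0.0201), and r = 0.748 without LH 2 and LH 4.

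Over all 36 pairs the median r was 0.504 without LH 4, 0.457 without the 2 mice farthest from the median in each pair, and 0.539 with size factors. Within groups, from deviations around the group means, the median r was 0.850 and 32 of 36 pairs were above 0.5. Mag and Ermn had r = 0.467 within groups.

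**Figure D4:**
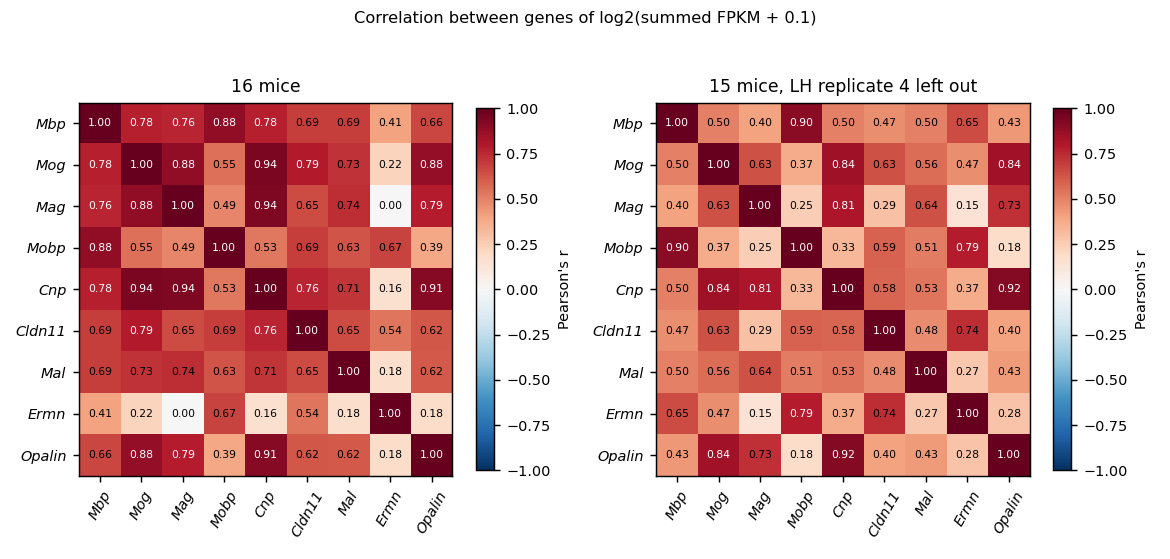
Pearson's r between the 9 genes of log2(summed FPKM + 0.1), over all 16 mice on the left and over 15 mice without LH 4 on the right, with the color running from -1 (blue) to 1 (red). Without LH 4 the fields of Mbp with Mobp (0.904) and Cnp with Opalin (0.915) stay dark, while the median over all 36 fields goes from 0.681 to 0.504.

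The 10 genes outside the list whose levels were most like the mean of the 9, by Pearson's r over 16 mice among genes with a mean of at least 1 FPKM, were Cd9 (0.944), Secisbp2l (0.938), Trf (0.929), Bmp2k (0.928), Ctnnal1 (0.917), Psma5 (0.913), Papss1 (0.912), Bcas1 (0.910), Nbas (0.905) and Scarb2 (0.903). Trf encodes transferrin, the iron carrier made by oligodendrocytes in the brain, and Cd9 a tetraspanin of cell membranes. All 10 were at their lowest in LH 4. Cd9 was at 4.61 FPKM in LH 4 and at 8.16 to 15.4 in the other mice, and its r was 0.879 without LH 4. For Nbas r was 0.785 without LH 4.

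Other genes of mature oligodendrocytes were counted as well, from a list chosen, like the 9 genes, with earlier results of these data known. The list as analysed here holds 24 genes. Limma's adjusted threshold was passed by 0 of 24 in each of the 4 comparisons. At an unadjusted limma p under 0.05, 3 lay lower in Ctrl vs. HC, 1 higher in NLH vs. Ctrl, 2 higher in LH vs. Ctrl and 2 lower in LH vs. NLH. The shares of all genes at that threshold, in either direction, were 2.7%, 5.59%, 11.5% and 7.54%. In Ctrl vs. HC only 3 of 24 were above 0 and the median log2 difference was -0.17, against 0.02 over all genes, and in NLH vs. Ctrl 18 of 24 were above 0 (median 0.18, against 0.06). In LH vs. Ctrl 15 of 24 were above 0 (median 0.04, against 0), and in LH vs. NLH 9 of 24 (median -0.02, against -0.06). In LH 4, 17 of the 24 were at their lowest. Pllp (plasmolipin, a membrane proteolipid of myelin, chosen after its values were seen) was at 9.97 to 12.6 FPKM in HC and at 6.67 to 7.20 in Ctrl (log2 difference -0.73, SE 0.35, limma adjusted p = 1).

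The most abundant genes of this list were Enpp2 (autotaxin) at 80.8 FPKM and Trf at 57.0. Enpp2, which the choroid plexus also makes, ran from 11.3 to 222 and did not pass between LH and Ctrl (log2 difference 0.03, SE 0.79, limma adjusted p = 1). The 8 choroid plexus markers summed to 15.8 to 50.7 in Ctrl and to 1.67 to 88.5 in LH (2.69 to 37.7 in HC and 3.37 to 63.5 in NLH), and their part in the level of Enpp2 was not tested. Trf was at 60.2 ± 24.2 in LH and 53.9 ± 2.26 in Ctrl (0.04, SE 0.26, limma adjusted p = 0.984).

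Genes of the oligodendrocyte lineage and of precursor cells, such as Sox10, Olig2 and Pdgfra, were measured for 13 of 14 (not Olig1). They summed to 50.9 ± 0.260 FPKM in HC and 51.9 ± 4.82 in Ctrl, and to 55.3 ± 2.74 FPKM in NLH and 54.3 ± 12.0 in LH, and 0 of 13 passed limma's adjusted threshold in any comparison. At an unadjusted p under 0.05, 1 was higher in Ctrl than in HC, against 2.7% of all genes, and 1 lower in LH than in NLH, against 7.54%. Their most abundant gene, Bcas1, was at 19.8 FPKM and had r = 0.910 with the mean of the 9 genes, while Tnr, at 12.9, had r = -0.54. The median r with the mean of the 9 genes was 0.731 for 19 mature oligodendrocyte genes and 0.697 for 8 lineage genes with a mean of at least 1 FPKM, and 0.416 for all 10436 genes at that level. It was 0.605 for choroid plexus, 0.604 for striatum, 0.534 for astrocyte, 0.465 for microglia, 0.453 for neuron, 0.173 for red blood cell and 0.092 for endothelial markers. These values describe the same 16 libraries and carry no test.

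**Figure D5:**
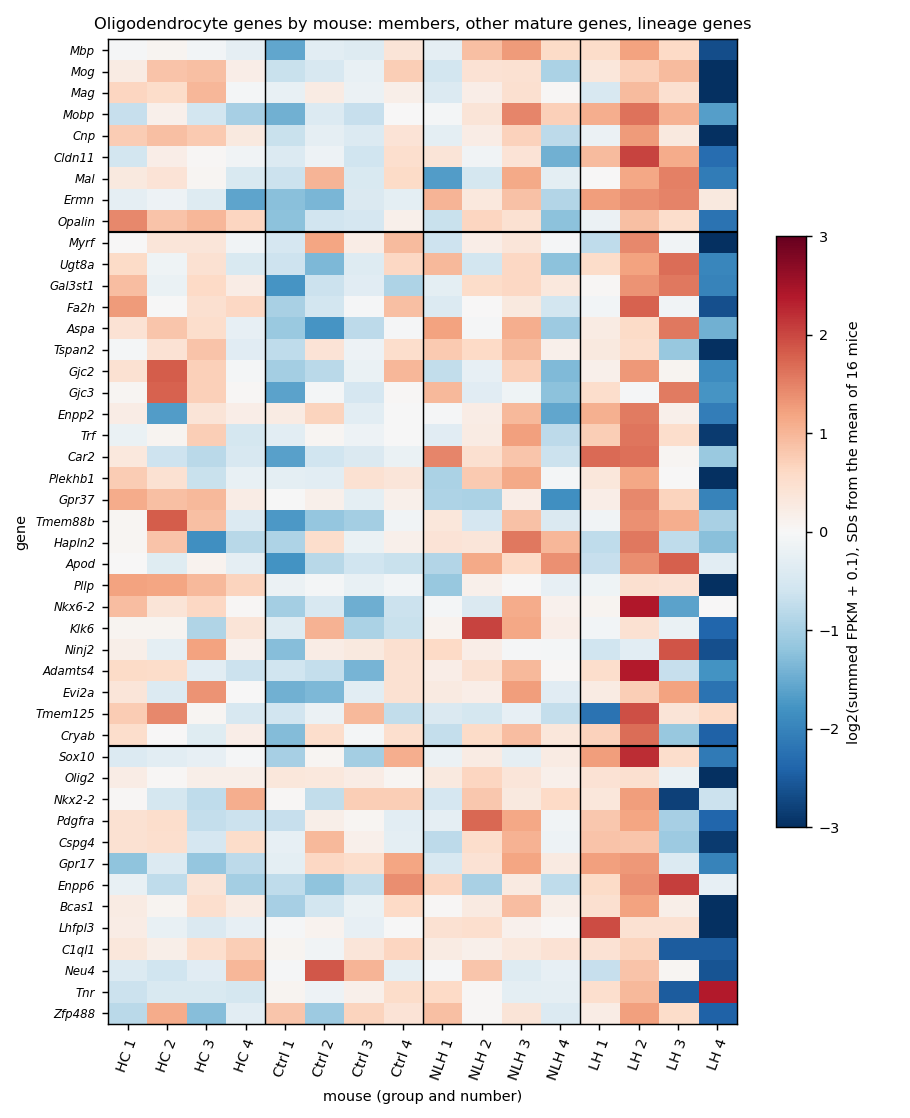
Level of each oligodendrocyte gene (rows: the 9 genes, 24 other mature genes, 13 lineage genes, parted by black lines) in each of the 16 mice (columns by group), as SDs of log2(summed FPKM + 0.1) from the mean of the 16 mice, red above and blue below, with colors ending at -3 and 3. The column of LH 4 is blue in nearly all rows, with 8 of the 9 genes, 17 of the 24 and 9 of the 13 at their lowest there.

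Markers of some other cells were also low in LH 4, and others were not. Of those measured, 3 of 9 neuron, 6 of 10 astrocyte, 6 of 10 microglia and 1 of 7 endothelial markers were at their lowest in this mouse, and 0 of 4 red blood cell markers. Astrocyte markers summed to 381 in LH 4 and 433 to 594 in the other mice, and microglia markers to 48.8 against 57.9 to 78.0. Endothelial markers summed to 35.9 in LH 4, above all HC, Ctrl and NLH mice (24.0 to 29.7), and red blood cell markers to 252, inside the range of the other mice (144 to 459). The part of tissue or library in the low myelin genes of LH 4 was not tested.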

How the data were processed

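RNA-seq of hippocampus from 16 mice (4 per group, 1 library each) was deposited as FPKM per transcript, which the authors obtained by mapping to mm10, assembling and merging transcripts with StringTie 1.2.3 and quantifying with Cufflinks. The paper names HISAT2 as aligner, while the submitters' processing notes name STAR 2.42a. FPKM values are not counts and were not scaled between mice beyond library size, so a few high genes can shift all others, and 4 mice per group limit the precision. Nothing says whether strand was kept. Groups came from the sample labels. The deposited values were summed over transcripts of 18287 gene names, including each of the 9 genes, and 18917 transcripts without a gene name were left out of the sums.

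With limma 3.58.1 in R 4.3.3 a linear model with a mean for each of the 4 groups was fitted to log2(FPKM + 0.1), with trend and robust moderation, and p-values were adjusted by Benjamini-Hochberg over all 18287 genes or all 80137 transcripts. It was tested on simulated data in which 200 genes or transcripts differed 4-fold. In LH vs. Ctrl 97% of these genes and 73% of these transcripts were recovered. Smaller differences were not simulated, and the largest gene difference followed here in LH vs. Ctrl, that of Ermn, was 1.52-fold. The recovery therefore does not tell whether differences of that size would have been found. Differences are on the log2(FPKM + 0.1) scale and understate those of low genes. Single values were compared by two-sided exact permutation tests, correlations by 100000 resamples in Python 3.11.15 (numpy 2.4.6, pandas 2.3.3, scipy 1.17.1, matplotlib 3.10.9). The study's own test, with equal variances on FPKM at an unadjusted p under 0.05, was an alternative. Positions and transcript classes came from GENCODE vM21 and promoters from RefSeq (GRCm38.p6).

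The genes and lists were chosen with earlier results of these data known. By rule the text names the 9 genes, their transcripts with at least 10% of a gene's FPKM or past a threshold, the 10 genes nearest to their mean, and the most abundant genes of each list. Pllp, the sum of Mbp-204 and Mbp-215, the share of Mbp-209 and the choice of promoters shown were decided after values were seen. Alternatives were 0.01 or 1 added before the logarithm, dropping features with a mean under 1 FPKM, size factors by median ratio, a fit to just the 8 mice in question, the mouse number as a block, and leaving out each mouse. Adding unnamed transcripts of a locus and leaving out LH 3 and LH 4 together were chosen after seeing the data. Mice are separate animals. Of 24 pairs of mice with the same number, 3, all of mice numbered 2, had deviations from group means correlated over 0.1 (median r -0.023), so the numbers were not taken to pair mice.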

Additional observations from a re-analysis of the deposited data

Results flagged for a closer look

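In 140 groups of 4 mice the highest or lowest mouse was checked for standing far from the other 3. They cover the 9 genes, their transcripts with at least 10% of a gene's FPKM, Mbp-204, Mbp-207, Mbp-209, Mbp-215 and Mag-204, the sum of Mbp-204 and Mbp-215, the Mal locus with its unnamed transcript, and the 11 shares. A mouse stood apart in 14 groups, where chance alone gives about 1 in 20, and 8 of these 14 were groups of Mbp-204, Mbp-207 and Mag-204, transcripts below 1 FPKM in most mice. Mbp-204 (ENSMUST00000080658.10) was at 9.53 FPKM in Ctrl 4 and at 0.68 or less in the other Ctrl mice, and at 0.013 in LH 1 against 0.0060 to 0.0071 in the other LH mice. Mbp-207 (ENSMUST00000114674.9) was at 0.517 in NLH 4 and 0.403 in LH 4, against at most 0.0215 in the other mice of those groups, and at 1.48e-07 in HC 3, also a value near 0. Mag-204 (ENSMUST00000188569.6) was at 0.101 in HC 3, and at 1.11e-15 in Ctrl 3 and 1.08e-23 in LH 4, both values near 0. Mbp-215 (ENSMUST00000152071.7) was at 13.6 in HC 1 and at 18.4 to 19.3 in the other HC mice, and the sum of Mbp-204 and Mbp-215 at 17.8 in NLH 3 and at most 15.02 in the other NLH mice. Cnp-201 (ENSMUST00000103120.4) was at 7.65 FPKM in NLH 4 and at 11.1 to 11.7 in the other NLH mice. The share of Cnp-204 (ENSMUST00000150414.7) in Cnp was 59.7% in LH 4 and 66.0% to 66.5% in the other LH mice. The share of Mobp-204 (ENSMUST00000174193.7) in Mobp was 81.7% in Ctrl 2 and 85.3% to 85.5% in the other Ctrl mice. The long form of Mag made up 40.1% of long plus short in LH 4 and 55.7% to 58.3% in the other LH mice.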

How the results depend on the processing

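Groups of 4 mice, FPKM without read counts and the zeros of LH 3 and LH 4 limit what could be seen. With the settings of the report 0 of 9 genes and 0 of 36 transcripts passed limma's adjusted threshold in any comparison. These counts moved as follows, and the cause was not tested unless fewer mice entered. The study's test on FPKM at unadjusted p passed 2, 1 and 1 genes in Ctrl vs. HC, NLH vs. Ctrl and LH vs. Ctrl and 2, 3, 3 and 1 transcripts in these and LH vs. NLH. In LH vs. Ctrl, size factors gave 2 genes and 1 transcript, and leaving out both LH 3 and LH 4, chosen after seeing the data, 2 genes. All genes past the threshold there were 0, against 512 and 989. The fit to the 8 mice gave 1 transcript in LH vs. NLH. Leaving out 1 mouse gave 0 to 2 genes and 0 to 1 transcripts in LH vs. Ctrl (LH 4) and 0 to 1 transcripts in LH vs. NLH (NLH 1). With mouse number as a replicate block 0 genes and 0 transcripts of the 9 passed in each comparison. Same-numbered mice deviated together, with r over 0.1, in 3 of 24 pairs, all between the mice numbered 2 of Ctrl, NLH and LH (0.110 to 0.138). All transcripts past the threshold under the block were 0, 0, 5 and 28, against 3, 10, 37 and 33 without it. The median r of 0.681 became 0.539 with size factors and 0.850 within groups, and lay between 0.504 and 0.722 with 1 mouse left out (0.504 without LH 4).

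Of 306 values of the 36 log2 differences under other settings 29 turned sign, all of values that did not pass. With size factors these were Mal (-7.4e-05) in Ctrl vs. HC, Mog (-0.036) and Mag (-0.0028) in NLH vs. Ctrl, Mog (0.044) and Cnp (0.033) in LH vs. Ctrl, and Mog (0.080), Mobp (0.10), Cnp (0.022) and Opalin (0.090) in LH vs. NLH. With unnamed transcripts added, chosen after seeing the data, they were Mal in Ctrl vs. HC (-0.20) and NLH vs. Ctrl (0.31), and Mog in NLH vs. Ctrl (-0.0072), LH vs. Ctrl (0.024) and LH vs. NLH (0.031). As the ratio of mean FPKM they were Cldn11 in NLH vs. Ctrl (0.0018), Mog (0.063) and Cnp (0.0066) in LH vs. Ctrl, and Mog (0.055) and Opalin (0.056) in LH vs. NLH. With 1 added, Opalin in LH vs. NLH was 0.0087. Without LH 3 and LH 4 they were Mog (0.27), Mag (0.12) and Cnp (0.20) in LH vs. Ctrl, and Mbp (0.061), Mog (0.26), Mag (0.083), Mobp (0.16), Cnp (0.15) and Opalin (0.33) in LH vs. NLH. With 1 mouse left out, 40 of 288 turned sign. The ranges were -0.072 to 0.036 for Mobp, -0.069 to 0.022 for Cldn11 and -0.10 to 0.12 for Mal in Ctrl vs. HC. In NLH vs. Ctrl they were -0.073 to 0.12 for Mog, -0.033 to 0.12 for Mag, -0.011 to 0.12 for Cnp and -0.054 to 0.096 for Cldn11. In LH vs. Ctrl they were -0.0073 to 0.30 for Mbp, -0.19 to 0.32 for Mog, -0.60 to 0.17 for Mag, -0.19 to 0.18 for Cnp, -0.17 to 0.31 for Mal and -0.044 to 0.55 for Opalin. In LH vs. NLH they were -0.27 to 0.039 for Mbp, -0.19 to 0.32 for Mog, -0.64 to 0.13 for Mag, -0.10 to 0.14 for Mobp, -0.24 to 0.13 for Cnp and -0.24 to 0.36 for Opalin.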
